A study of Homo sapiens with 24 samples.

Results

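Integrins are receptors made of 1 alpha and 1 beta subunit that hold cells to collagen, laminin, fibronectin and vitronectin, and CD44 is a single-chain receptor for the matrix sugar hyaluronan. The genes described here are set by a list of transcript IDs, chosen with earlier results of these data known: ITGB1, ITGA2, ITGA3, ITGA5, ITGAV, ITGB5, ITGB4 and CD44, with 9 Ensembl transcripts in all. Of these, 8 were present, 1 for each gene, among the 11396 transcripts of the deposited tables: ENST00000302278 (ITGB1), ENST00000296585 (ITGA2), ENST00000320031 (ITGA3), ENST00000293379 (ITGA5), ENST00000261023 (ITGAV), ENST00000296181 (ITGB5), ENST00000200181 (ITGB4) and ENST00000428726 (CD44). The CD44 transcript ENST00000263398 was absent from both tables, so the values of CD44 belong to the listed transcript only.

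Ribosome footprints and RNA were sequenced in MDA-MB-231, a human breast cancer line, in 24 libraries with 3 replicates per cell group and assay. In the first experiment LM2 cells (MDA-LM2), labelled as highly metastatic to lungs, were set against the parental line (MDA-Par), labelled as poorly metastatic. The other experiment used poorly metastatic MDA-MB-231 cells, either with a knockdown of HNRNPC (sgHNRNPC) or carrying a control guide (sgCTRL). HNRNPC binds pre-mRNA in the nucleus. The design asks how translation efficiency differs with metastatic capacity. All groups were grown in high-glucose DMEM with serum, and the labels do not say whether a group was 1 clone or a pool, or whether replicates were separate cultures. P-values therefore measure the spread between these libraries, which may be technical. The tables do not pair IDs with gene names, so the level of HNRNPC and other adhesion genes were not analysed here.

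The beta1 subunit, from ITGB1, pairs with many alpha subunits. With alpha2 (ITGA2) it forms a collagen receptor, with alpha3 (ITGA3) a laminin receptor and with alpha5 (ITGA5) the main fibronectin receptor. The alphaV subunit (ITGAV) pairs with beta5 (ITGB5) as a vitronectin receptor, and also with other beta subunits. Beta4 (ITGB4) pairs with alpha6 as a laminin receptor that links to keratin filaments in hemidesmosomes. Integrins and CD44 are made on ribosomes bound to the endoplasmic reticulum, and CD44 is abundant on mesenchymal-like breast cancer cells.

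On GRCh38.p14 in RefSeq, ITGB1 lies at chr10:32900318-32958230, ITGA2 at chr5:52989352-53094779, ITGA3 at chr17:50056110-50090481 and ITGA5 at chr12:54395261-54419266. ITGAV lies at chr2:186590056-186680901, ITGB5 at chr3:124761948-124901418, ITGB4 at chr17:75721459-75757818 and CD44 at chr11:35139171-35232402. Of the members whose RNA rose in the knockdown cells, ITGB1 had 2 windows in the RefSeq promoter set used and ITGA3 had 0. The promoters of ITGA2, ITGA5 and CD44 are shown because the RNA of all 3 also rose and that set held 1 window for each. Each is the 250 bases before the start, 5′ to 3′ on the gene's strand, with every match to the GC box GGGCGG or its reverse complement CCGCCC in capitals.
ITGA2 (chr5:52989102-52989351, plus strand): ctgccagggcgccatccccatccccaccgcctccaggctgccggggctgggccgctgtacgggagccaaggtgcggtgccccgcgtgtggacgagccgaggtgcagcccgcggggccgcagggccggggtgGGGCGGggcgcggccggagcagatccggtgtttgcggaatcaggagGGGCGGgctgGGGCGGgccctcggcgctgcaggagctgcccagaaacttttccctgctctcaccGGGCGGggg
ITGA5 (chr12:54419267-54419516, minus strand): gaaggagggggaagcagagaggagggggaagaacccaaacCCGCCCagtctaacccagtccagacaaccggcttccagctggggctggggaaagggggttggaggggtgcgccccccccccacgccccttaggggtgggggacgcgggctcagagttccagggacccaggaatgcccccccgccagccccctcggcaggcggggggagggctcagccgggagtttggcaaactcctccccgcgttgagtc
CD44 (chr11:35138921-35139170, plus strand): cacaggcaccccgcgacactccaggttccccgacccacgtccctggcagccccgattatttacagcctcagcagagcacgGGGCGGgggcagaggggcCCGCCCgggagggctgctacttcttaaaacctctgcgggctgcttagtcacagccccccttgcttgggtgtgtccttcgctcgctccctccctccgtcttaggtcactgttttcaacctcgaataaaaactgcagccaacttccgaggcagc
The GC box, the sequence bound by Sp1, matched 4 times in the ITGA2 window, 1 time in ITGA5 and 2 times in CD44. It was found on either strand in 42.6% of the 35116 promoter windows of the same length in the RefSeq table, so a match is common. Of the 10 windows of all members, including those not shown, 6 held a match. A link between matches and RNA changes was not tested. Bases were G or C at 76.4%, 70.0% and 62.4% of positions in the 3 windows in the order given. Transcript starts and factor binding were not measured in this study.

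Values are the authors' normalized read signal per transcript, and changes are differences of log2(value + 1) with their SE. Transcripts with a mean of at least 10 in RNA and in footprints were tested with limma, 9342 transcripts for LM2 against parental cells and 8283 for the knockdown. All 8 members passed this filter for LM2 against parental cells, and 7 for the knockdown, where ITGAV had too few footprints. RNA values trace back to an inferred 23344230 to 52584688 reads per library, while the read depth behind the footprints is unknown. Before the filter, transcripts with a footprint value of 0 numbered 234, 139 and 70 in control guide replicates 1 to 3, against 23, 38 and 95 in knockdown cells. They numbered 65, 25 and 26 in LM2 cells, against 95, 73 and 150 in parental cells. The part of these differences in the results was not tested. A change was called where the limma p, adjusted by Benjamini-Hochberg over all transcripts tested, was under 0.05. Translation efficiency is the footprint value per RNA value. Isoforms of a gene share sequence and the authors' rule for shared reads is not given in the sources used here, so each value may hold reads of other isoforms. Control guide replicate 1 had the lowest RNA value of its group for 7 of the 8 members and the lowest footprint value for 7, and its part in the results was not tested except by leaving it out. Other libraries leaned too. LM2 replicate 1 was highest for 6 of the 8 in RNA and in footprints, and parental replicate 1 was lowest for 6 in RNA. Knockdown RNA was lowest for 6 in replicate 1 and highest for 6 in replicate 2. Such shares over all transcripts were not computed.

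LM2 cells had fewer footprints than parental cells on all 8 transcripts, with 4 calls, while their RNA went either way. Footprints fell on ITGB4, ITGA2, CD44 and ITGA3 and rose on none (5 lower and 0 higher at an unadjusted p under 0.05), beside 23.8% of all tested transcripts called, 9.25% higher and 14.5% lower. RNA fell for ITGA2, ITGB5 and ITGB4 and rose for CD44, 4 of 8 members, beside 53.7% of all transcripts called, 22.9% higher and 30.8% lower. Translation efficiency fell for ITGB4, CD44 and ITGA3 and rose for none (3 lower and 0 higher at an unadjusted p under 0.05), beside 1.63% of all transcripts called, 0.471% higher and 1.16% lower. None of these 3 efficiency calls held when footprints and RNA of the same replicate number were paired, and on simulated data efficiency calls held more false ones than the threshold allows. The median footprint change was -0.49 over the 8 members and -0.0011 over all tested transcripts. The median efficiency change was -0.24 over the members and 0.04 over all.

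**Figure D1:**
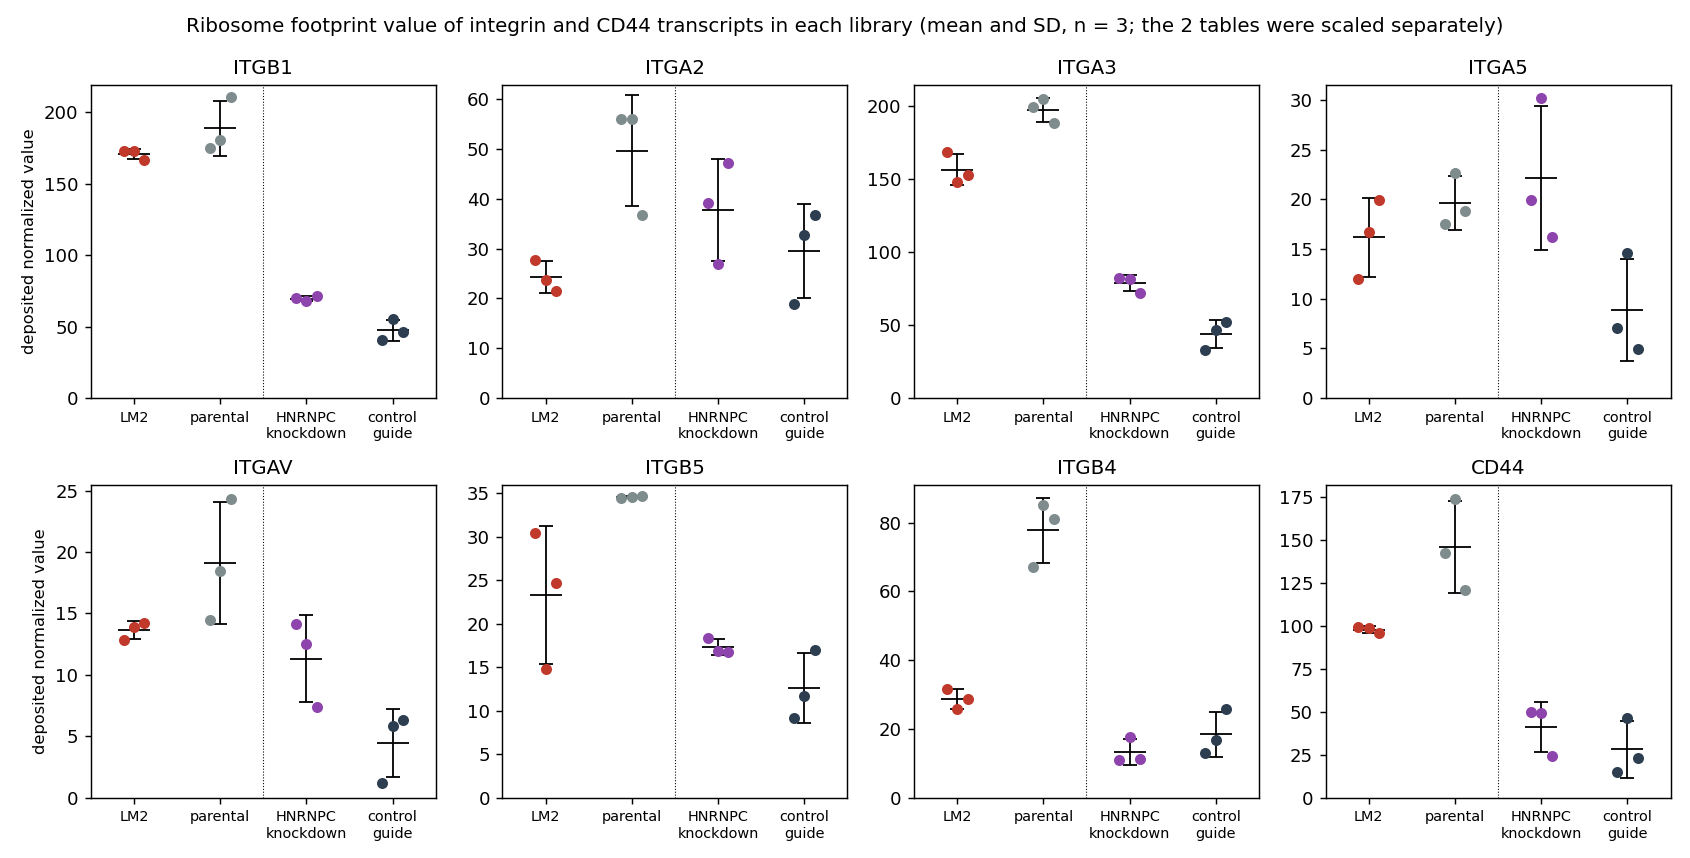
Footprint values of the 8 transcripts in each library (points), with the mean and SD of 3 replicates, and a dotted line between the separately scaled tables. ITGB4 footprints lay between 25.9 and 31.8 in LM2 cells and between 67.2 and 85.1 in parental cells.

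ITGB4 had the largest efficiency change of the 8 members. Its footprint values were 31.8, 25.9 and 28.8 in LM2 cells, against 67.2, 85.1 and 81.0 in parental cells. The highest LM2 library thus lay far below the lowest parental library, and the footprint change was -1.40 ± 0.17 (limma adjusted p = 7.95e-08). ITGB4 RNA was 1789.9, 1576 and 1662 in LM2 cells, against 1959.7, 2024 and 2237 in parental cells, a change of -0.31 ± 0.07 (adjusted p = 0.000549). The groups did not overlap in either assay, but the RNA fell by far less than the footprints. Efficiency fell by 1.09 ± 0.16 (adjusted p = 0.00127). This SE is below that of the footprint change alone and may be too small, as 1 spread was fitted over RNA and footprint libraries together.

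CD44, the hyaluronan receptor, had more RNA and fewer footprints in LM2 cells. Its RNA values were 4909, 4733 and 4599 in LM2 cells, against 3574, 3972 and 4341 in parental cells, a change of 0.26 ± 0.06 (limma adjusted p = 0.000431). CD44 footprints were 99.2, 98.9 and 95.7 in LM2 cells, against 142, 174 and 121 in parental cells, a change of -0.55 ± 0.12 (adjusted p = 0.000511). The groups did not overlap in either assay and moved in opposite directions, and the RNA call was lost with the spread from all 12 libraries (0.0547). CD44 efficiency fell by 0.82 ± 0.14 (adjusted p = 0.00487).

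ITGA3, the alpha subunit of a laminin receptor, had fewer footprints at similar RNA. Its footprint values were 168, 148 and 153 in LM2 cells, against 199, 204 and 188 in parental cells, a change of -0.34 ± 0.09 (limma adjusted p = 0.00863). RNA values overlapped, at 8335, 7134 and 7309 in LM2 cells and 6651, 7311 and 7166 in parental cells, and their change of 0.11 ± 0.05 missed the threshold (adjusted p = 0.0819). It passed after TMM scaling (0.0421), after quantile normalization (0.0109), with the median change set to 0 (0.0323) and without LM2 replicate 2 (0.0244). ITGA3 efficiency fell by 0.44 ± 0.10 (adjusted p = 0.0303), and the footprint call was lost without LM2 replicate 2 (0.0582) and without a variance trend (0.0734).

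RNA came from the lysates, but the labels do not say that a replicate number marks 1 lysate. When footprints and RNA of the same number were paired as 1 lysate, limma called 0 of all 9342 transcripts, with 1078 at an unadjusted p under 0.05. The adjusted p was then 0.0875 for ITGB4, 0.209 for CD44 and 0.257 for ITGA3. Without a variance trend 18 of all 9342 were called, ITGB4 among them. ITGB4 passed in each of the other alternatives, CD44 was also lost without LM2 replicate 2 (0.0563), LM2 replicate 3 (0.0523), parental replicate 1 (0.0516) or a variance trend (0.0748), and ITGA3 in each fit without 1 replicate (0.0772 to 0.151) except that without LM2 replicate 1 (0.0141), and without a variance trend (0.139).

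ITGA2, the alpha subunit of a collagen receptor, fell in RNA and footprints by similar amounts. RNA values were 533, 554 and 515 in LM2 cells, against 1139.9, 1172 and 1157 in parental cells, so that the mean was 2.17 times as high in parental cells (log2 change -1.11 ± 0.09, limma adjusted p = 4.96e-10). Its footprints were 27.8, 23.6 and 21.5 in LM2 cells, against 56.1, 56.0 and 36.8 in parental cells (-0.98 ± 0.21, adjusted p = 0.000517). Neither assay overlapped between the groups. The efficiency change of 0.13 ± 0.22 did not pass (adjusted p = 0.849), and its SE allows changes of either sign.

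ITGB5, the beta partner of alphaV, also had less RNA in LM2 cells. RNA values were 1358, 1340.3 and 1351 in LM2 cells, against 2303, 2138 and 2169 in parental cells (log2 change -0.71 ± 0.06, limma adjusted p = 3.01e-09). Footprints were 30.5, 14.8 and 24.7 in LM2 cells, against 34.4, 34.6 and 34.7 in parental cells. The footprint groups did not overlap, yet LM2 replicates spread widely and the change of -0.61 ± 0.24 missed the threshold (adjusted p = 0.0585). It passed without LM2 replicate 1 (-0.82, adjusted p = 0.0196), after quantile normalization (0.0356) and with the spread from all 12 libraries (0.00961).

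ITGB1, ITGA5 and ITGAV had no call in LM2 cells. ITGB1 RNA was 7941, 7398 and 6981 in LM2 cells, against 7026, 7373 and 7559 in parental cells (0.02 ± 0.04, limma adjusted p = 0.701). Its footprints were 173, 173 and 166 in LM2 cells, against 175, 181 and 211 in parental cells (-0.14 ± 0.10, adjusted p = 0.311). The footprint groups of ITGB1 did not overlap, but the closest libraries differed by little. ITGA5, the fibronectin receptor subunit, had footprints of 11.97 to 19.9 in LM2 cells and 17.5 to 22.7 in parental cells, and a footprint change of -0.28 ± 0.28. ITGAV footprints were 12.8, 13.9 and 14.3 in LM2 cells, against 14.5, 18.5 and 24.3 in parental cells, a change of -0.43 ± 0.29 (adjusted p = 0.301). RNA of ITGA5 and ITGAV overlapped between the groups, with changes of -0.11 ± 0.12 and -0.13 ± 0.15. Footprint groups were thus lower in LM2 cells without overlap for 7 of the 8 members, all but ITGA5, beside 37.3% of all tested transcripts with groups that did not overlap in either direction. RNA groups did not overlap for 4 of the 8, beside 58.8% of all.

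**Figure D2:**
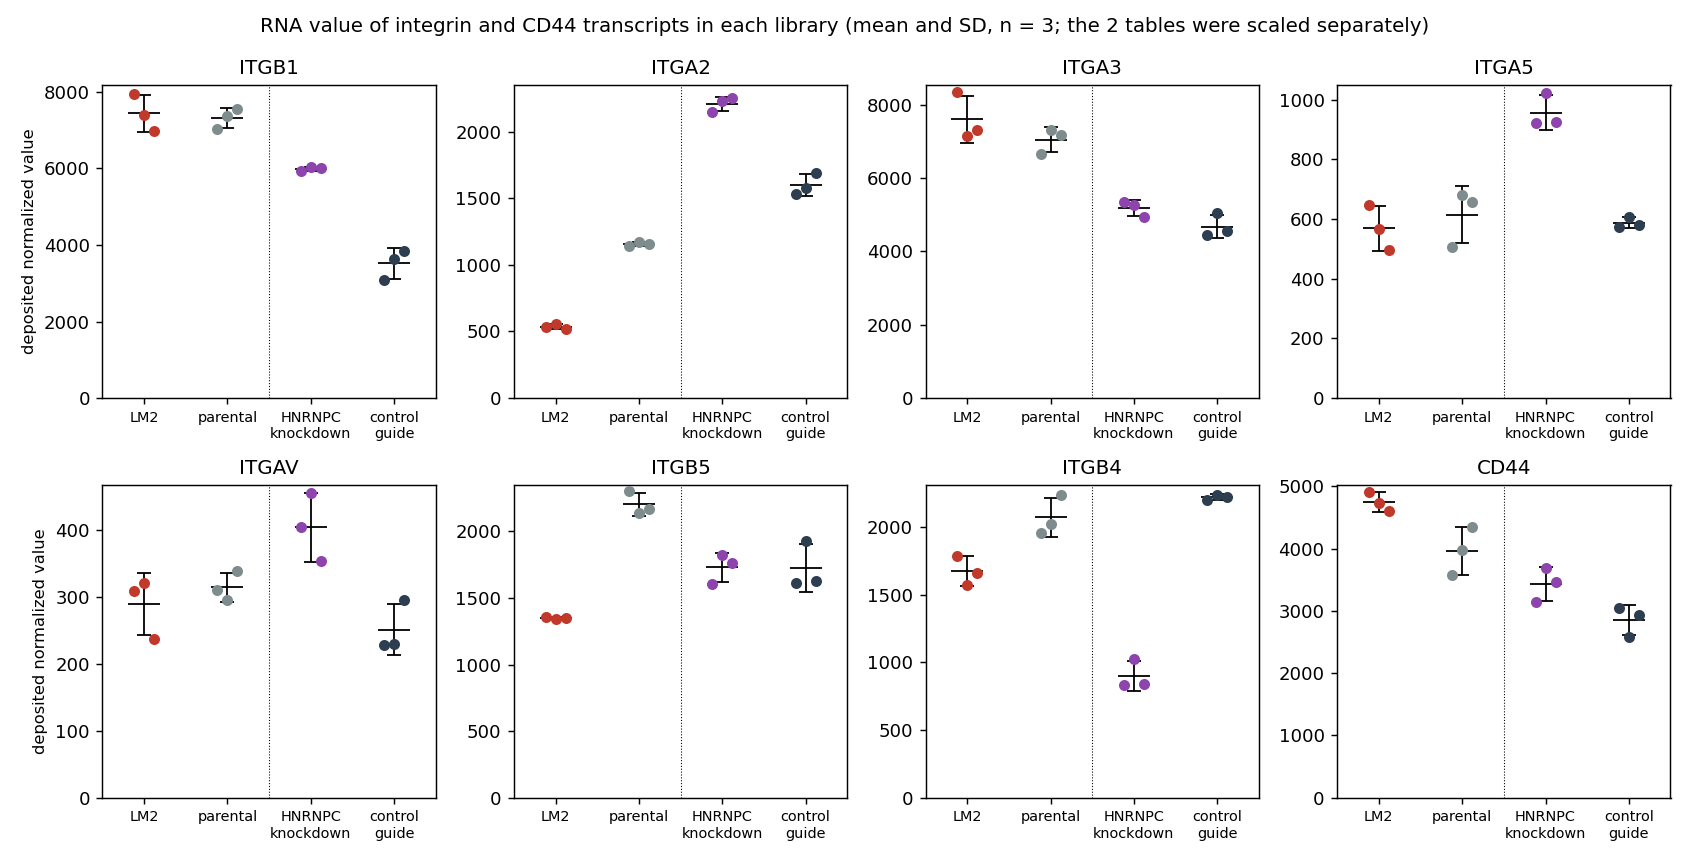
RNA values of the 8 transcripts in each library (points), with the mean and SD of 3 replicates, and a dotted line between the separately scaled tables. ITGB4 RNA averaged 899 in HNRNPC knockdown cells, against 2223 in control guide cells, while ITGB1 RNA averaged 5983 in knockdown cells, against 3520.0 in control guide cells.

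HNRNPC knockdown cells had more RNA than control guide cells for most of these receptors and much less for ITGB4. RNA rose for ITGB1, ITGA5, ITGA2, CD44 and ITGA3 and fell for ITGB4, 6 of 7 tested members, beside 73.5% of all transcripts called, 28% higher and 45.4% lower. Footprints rose for ITGA5, ITGA3 and ITGB1, 3 of 7, and fell for none (4 higher and 0 lower at an unadjusted p under 0.05), beside 36.2% of all called, 15.5% higher and 20.7% lower. Efficiency rose for ITGA3 alone and fell for none (2 higher and 0 lower at an unadjusted p under 0.05), beside 5.46% of all called, 3.72% higher and 1.74% lower. Including ITGAV, groups did not overlap for 6 of the 8 members in RNA, beside 75.1% of all tested transcripts, and for 4 of the 8 in footprints, beside 46.2%. As deposited, the median RNA change was 0.27 over the 7 members and -0.10 over all tested transcripts, so that RNA changes stand about 0.1 higher relative to the median of all transcripts. After quantile normalization, which gives every library the same distribution of values, the median over all was 0.0053. The median over the members was not computed after it. The median footprint change was 0.55 over the members and -0.04 over all.

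ITGB1, the shared beta subunit, rose in both assays. RNA values were 5922, 6027 and 6002 in knockdown cells, against 3078, 3629 and 3853 in control guide cells (log2 change 0.77 ± 0.06, limma adjusted p = 8.11e-12). Footprints were 70.1, 67.6 and 71.1 in knockdown cells, against 40.9, 55.1 and 46.2 in control guide cells (0.55 ± 0.15, adjusted p = 0.00425). The groups did not overlap in either assay, and knockdown replicates lay closer together than control guide replicates. The efficiency change of -0.22 ± 0.14 did not pass (adjusted p = 0.413).

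ITGA5 showed the largest footprint rise among the tested members. Its RNA was 922, 1023 and 925 in knockdown cells, against 574, 608 and 579 in control guide cells (0.70 ± 0.09, limma adjusted p = 6.07e-08). Footprints were 19.9, 30.2 and 16.2 in knockdown cells, against 7.01, 14.6 and 4.93 in control guide cells (1.31 ± 0.36, adjusted p = 0.00438). The groups did not overlap, but these are low footprint values, and the call was lost without knockdown replicate 2 (1.07, adjusted p = 0.0547). The efficiency change of 0.61 ± 0.39 did not pass (adjusted p = 0.403).

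ITGA3 had a footprint rise larger than its RNA rise. Footprints were 82.3, 81.4 and 72.1 in knockdown cells, against 33.1, 46.4 and 52.2 in control guide cells (0.85 ± 0.16, limma adjusted p = 9.01e-05). RNA was 5332, 5259 and 4929 in knockdown cells, against 4444, 5035 and 4541 in control guide cells (0.15 ± 0.05, adjusted p = 0.00945), with overlap between the groups. The RNA call was lost without knockdown replicate 1 (0.0520), without control guide replicate 1 (0.0568), without a variance trend (0.0704) and with the spread from all 12 libraries (0.333). ITGA3 efficiency rose by 0.70 ± 0.17 (adjusted p = 0.0274). This call was lost after TMM scaling (0.0535) and quantile normalization (0.0658), with footprints and RNA paired as 1 lysate (0.127, where 75 of all 8283 transcripts were called), without a variance trend (0.0802), and without knockdown replicate 1 (0.0792), 2 (0.106) or 3 (0.0702) or control guide replicate 2 (0.0841).

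ITGA2 RNA rose in knockdown cells, with values of 2145, 2228 and 2249, against 1528, 1577 and 1690.4 in control guide cells (0.47 ± 0.06, limma adjusted p = 1.15e-07). The RNA groups did not overlap, and the call was lost only with the spread from all 12 libraries (0.066). Its footprints overlapped, at 39.1, 26.98 and 47.2 in knockdown cells against 19.0, 32.8 and 36.8 in control guide cells, and their change of 0.36 ± 0.23 did not pass (adjusted p = 0.238). Without control guide replicate 1 that footprint change was 0.08.

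ITGB4 went the other way in RNA, with values of 834, 1025 and 839 in knockdown cells, against 2203, 2241 and 2225 in control guide cells. The mean was 2.47 times as high in control guide cells, without overlap (log2 change -1.31 ± 0.07, limma adjusted p = 3.34e-14). Footprints overlapped, at 11.1, 17.7 and 11.2 in knockdown cells against 12.95, 16.8 and 25.7 in control guide cells, a change of -0.42 ± 0.32 (adjusted p = 0.311). The efficiency change was 0.89 ± 0.30 and missed the threshold (adjusted p = 0.0948), while a pseudocount of 5 brought it past (0.97, adjusted p = 0.0237).

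CD44 RNA was 3143, 3688 and 3461 in knockdown cells, against 3038, 2577 and 2938 in control guide cells (0.27 ± 0.06, limma adjusted p = 0.00039). The RNA groups did not overlap, although the nearest libraries were close, and the call was lost with the spread from all 12 libraries (0.475). Footprints were 49.9, 49.5 and 24.2 in knockdown cells, against 14.8, 46.4 and 23.2 in control guide cells. They overlapped and spread widely in both groups, with a change of 0.61 ± 0.28 (adjusted p = 0.0899). That change was 0.25 without control guide replicate 1 and passed without control guide replicate 2 (1.04, adjusted p = 0.00439), without knockdown replicate 3 (0.95, adjusted p = 0.00677) and with the replicate number as a block (0.0289).

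Neither subunit of the vitronectin receptor had a call in the knockdown, where ITGAV was not tested. ITGB5 RNA was 1607, 1821 and 1764 in knockdown cells, against 1610.1, 1929.8 and 1631 in control guide cells (0.0090 ± 0.07, limma adjusted p = 0.913). Its footprints were 18.3, 16.9 and 16.8 in knockdown cells, against 9.14, 11.7 and 17.04 in control guide cells (0.47 ± 0.31, adjusted p = 0.249). Both assays of ITGB5 overlapped between the groups, and the footprint change passed with the spread from all 12 libraries (0.0341). ITGAV, outside the filter, had RNA of 403, 455 and 353 in knockdown cells, against 228, 229 and 295 in control guide cells, and footprints of 14.1, 12.5 and 7.36 against 1.24, 5.83 and 6.29. Neither assay of ITGAV overlapped. With no filter, the ITGAV changes were 0.69 ± 0.14 in RNA (limma adjusted p = 8.69e-05) and 1.31 ± 0.47 in footprints (adjusted p = 0.0345).

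**Figure D3:**
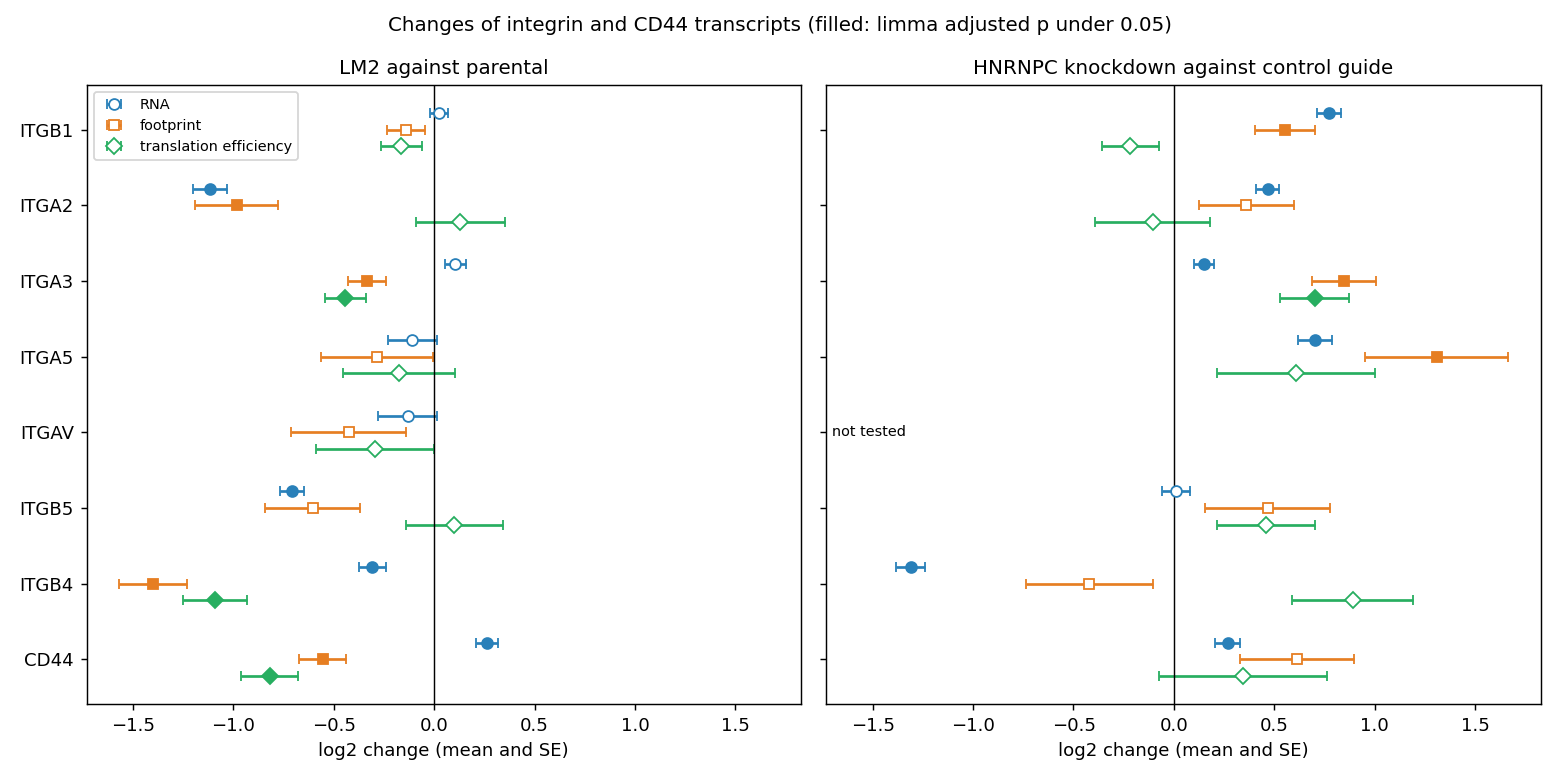
Log2 change (mean and SE) of RNA, footprints and translation efficiency per transcript for LM2 against parental cells (left) and HNRNPC knockdown against control guide cells (right), with filled symbols where the limma adjusted p was under 0.05. All 8 footprint changes lie below 0 in LM2 cells, and 6 of 7 lie above 0 in knockdown cells.

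The comparisons share no library but were scaled separately, so the difference between them was not tested. Set side by side, ITGA2 RNA changed by -1.11 in LM2 cells and by 0.47 in knockdown cells. ITGA3 efficiency changed by -0.44 in LM2 cells and by 0.70 with the knockdown. ITGB4 RNA fell in both, at -0.31 in LM2 cells and -1.31 with the knockdown, while its efficiency change was -1.09 in LM2 cells and, short of the threshold, 0.89 in knockdown cells.

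Translation efficiency levels of these transcripts were also set against all others in the same cells. A level is the mean log2 ratio of footprint to RNA value, here less the median of all tested transcripts in the same cells. Ratios were formed within a replicate number, so the SD of a level, unlike its mean, depends on that pairing. Neither value was corrected for coding or transcript length. A rank between transcripts may therefore reflect their structure, and does not by itself show that a transcript is poorly translated. In LM2 cells 5 of the 8 members stood in the lowest 25% of tested transcripts, at a median percentile of 17.1 over the 8, against 2 of 8 in parental cells, at 38.8. The parental count is what 8 transcripts drawn at random would hold on average, and these members were not drawn at random. All 7 tested members did in knockdown cells, at a median percentile of 10.7, and likewise in control guide cells, at 4.53. A count over 8 chosen transcripts has no test here, and the line was chosen after the values were seen.

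ITGB5 had the lowest level of the tested members in all 4 cell groups, at percentile 10.6 in LM2 cells, 10.02 in parental cells, 4.47 in knockdown cells and 2.62 with the control guide. In LM2 cells its level overlapped that of ITGB4 within the SD, at -1.36 ± 0.50 for ITGB5 and -1.32 ± 0.05 for ITGB4 (SD, n = 3). It also overlapped the LM2 levels of ITGA3, CD44, ITGB1 and ITGA5. In knockdown cells ITGB5, at -1.86 ± 0.16, overlapped CD44, at -1.71 ± 0.61, and ITGB1, at -1.71 ± 0.04. With the control guide ITGB5, at -2.24 ± 0.45, overlapped ITGB4, at -2.11 ± 0.47, as well as CD44, ITGA3 and ITGA5. ITGB5 thus stood apart from its neighbour by more than the SD in parental cells only, at -1.42 ± 0.06, with ITGB1 next at -0.74 ± 0.10. ITGB4 stood at percentile 11.2 in LM2 cells and 42.6 in parental cells, and CD44 at 15.4 and 41.1. ITGAV was the highest in the LM2 table, at percentile 58.3 in LM2 cells and 71.1 in parental cells, followed by ITGA2 at 53.6 and 49.7. The ITGA2 level lay at 0.08 ± 0.17 in LM2 cells and -0.0046 ± 0.35 in parental cells, but at -1.17 ± 0.40 in knockdown cells and -0.98 ± 0.43 with the control guide. Parental and control guide cells are both MDA-MB-231 cells labelled poorly metastatic, and all 8 members had a lower level in control guide cells. The share of all transcripts with a lower level there was not computed, so this count cannot be read as particular to the members. ITGAV was outside the filter in the knockdown experiment, and its control guide level rests on footprint values of 1.24, 5.83 and 6.29. The tables were scaled separately and the experiments share no library, so the guide, the experiment and the processing cannot be told apart.

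**Figure D4:**
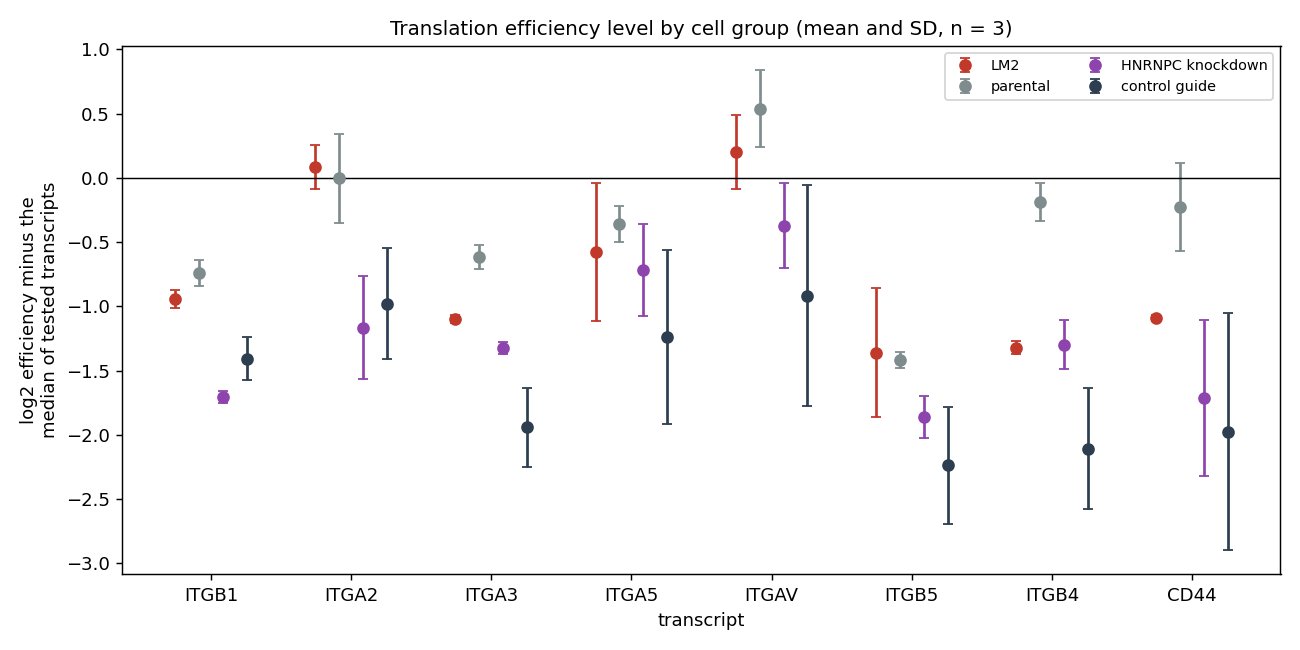
Translation efficiency level of each transcript, as log2 footprint per RNA less the median of tested transcripts in the same cells (mean and SD of 3 replicates), by cell group. All 8 control guide levels lie below the parental level, and CD44 stands at -1.09 in LM2 cells against -0.23 in parental cells. The share of all transcripts with a lower control guide level was not computed, and ITGAV was outside the filter in the knockdown experiment.

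Since an alpha subunit reaches the surface with a beta partner, each alpha value was also set per 100 of its partner in the same library, a ratio that 1 scaling factor per library does not change. The values are not per length, so they show shifts between groups and not subunit numbers. ITGA2 RNA per 100 ITGB1 RNA was 6.71, 7.49 and 7.38 in LM2 cells, against 16.2, 15.9 and 15.3 in parental cells. ITGA2 footprints per 100 ITGB1 footprints were 16.1, 13.7 and 12.9 in LM2 cells, against 32.1, 31.0 and 17.5 in parental cells. Both ratios were lower in LM2 cells without overlap. In the knockdown ITGA2 RNA per 100 ITGB1 RNA was 36.9 ± 0.63, against 45.7 ± 3.46 in control guide cells, again without overlap. The ITGA2 footprint ratio was 54.0 ± 13.4 in knockdown cells, against 61.9 ± 16.8 in control guide cells, with overlap. ITGA3 RNA per 100 ITGB1 RNA was 86.5 ± 4.02 in knockdown cells, against 134 ± 13.97 in control guide cells (SD, 3 libraries each). The footprint ratio was 113 ± 10.2 in knockdown cells, against 92.8 ± 17.6 in control guide cells. The RNA groups did not overlap and the footprint groups did. ITGA5 RNA per 100 ITGB1 RNA was 15.98 ± 0.86 in knockdown cells, against 16.8 ± 1.81 in control guide cells, within the spread. The ITGA5 footprint ratio was 32.0 ± 11.3 in knockdown cells, against 18.1 ± 7.96 in control guide cells, with overlap. ITGAV RNA per 100 ITGB5 RNA was 21.4 ± 3.43 in LM2 cells, against 14.3 ± 1.13 in parental cells, and 23.3 ± 2.92 in knockdown cells, against 14.7 ± 3.14 in control guide cells, with no overlap in either comparison. The ITGAV footprint ratio overlapped in both, at 64.6 ± 26.6 in LM2 cells, against 55.2 ± 14.2 in parental cells, and 64.9 ± 18.3 in knockdown cells, against 33.4 ± 18.3 in control guide cells. With 3 libraries against 3 the two-sided exact permutation p cannot go below 0.1, which 6 of the 16 ratio comparisons reached (0.267 after Benjamini-Hochberg adjustment). How often ratios of other transcript pairs do not overlap was not computed, so these counts cannot be read as particular to integrins. For single RNA values, groups did not overlap for 58.8% of all tested transcripts in LM2 against parental cells and 75.1% in the knockdown.

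Likeness between members was measured as the root mean square difference of their log2 values over 24 libraries, centred within table and assay. ITGB1 and ITGA3 were nearest to each other, at 0.22. ITGA2 was nearest to ITGB5 (0.29), and CD44, ITGB5 and ITGAV to ITGA3 (0.27, 0.28 and 0.33). ITGB4 stood farthest from ITGB1, ITGA2, ITGA3, ITGA5, ITGAV and CD44, and even its nearest member, ITGB5, was at 0.49. The members share libraries, so these values describe the tables and carry no test.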

How the data were processed

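Footprints and RNA were measured in 24 libraries of MDA-MB-231 cells. Per the labels' protocols, lysates held cycloheximide, footprints followed McGlincy and Ingolia, and RNA came from the lysates (SMARTer Pico kit). The submitters' processing notes name Bowtie2 2.3.5, cutadapt 2.3, SAMtools, UMI-tools and hg38, with no role given. The authors' deposited values are a normalized signal per transcript, per the file headers, with scaling and annotation not given in the sources used here. Every RNA value was a whole multiple of 1 step per library (within 0.05 of a step), read here as 1 read each, which gives 23344230 to 52584688 reads per library. Footprint values had no common step, so their depth is unknown, and no count model was run.

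Fits used limma 3.58.1 in R 4.3.3 on log2(value + 1), with a variance trend, two-sided, within a table. RNA and footprints were each fitted on 6 libraries, and efficiency on 12, as an interaction between assay and cell group. The efficiency fit used 1 spread per transcript for both assays, so its SE can understate the footprint noise. The fits were tested on data simulated with independent noise in each library. These data held no effect shared within a lysate or culture, so they cannot give the false share among the real calls. RNA and footprint calls there held about the share of false ones that the threshold allows and efficiency calls held more, and footprint and efficiency changes of the smallest size simulated were mostly missed. Named transcripts were all members present; likeness was taken among members, since 0 of 11396 IDs matched the gene name tables. The lists of other integrins, ligands, adhesion proteins, tetraspanins, proteases and cell markers that had been written down were therefore not analysed here, nor were coding lengths, so levels are not compared per length. The members and lists were chosen with earlier results of these data known. Parental columns carry only the line's name (MDA). Alternatives were other pseudocounts, filters, scalings, spreads and blocks, and leaving out each replicate.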

Additional observations from a re-analysis of the deposited data

How the results depend on the processing

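Of 45 log2 changes of members, 21 were called, all 21 kept their sign in every alternative run on them and 11 passed in all. The number of members called for RNA was 4 in LM2 cells and 2 of the 4 left with a minimum mean of 50, since fewer were tested. In knockdown cells it was 6, against 2 of 2 with that minimum and 3 with the spread from all 12 libraries. Efficiency calls in LM2 cells numbered 3, against 1 without a variance trend (18 of all 9342 transcripts), 0 with the lysate replicate block (limma, 0 of all 9342; 3 members at an unadjusted p under 0.05) and 1 to 3 without a replicate. In knockdown cells there was 1, against 2 with a pseudocount of 5, 0 after TMM scaling, quantile normalization, no variance trend or the lysate replicate block (with that block 75 of all 8283 transcripts were called, and 2 members had an unadjusted p under 0.05), and 0 to 1 without a replicate. The cause of these losses was not tested. With the replicate number as a block the efficiency calls were again 3 for LM2 and 1 for the knockdown, footprint calls 4 for each and RNA calls 4 and 6. Same-numbered libraries of 2 groups deviated with a correlation of -0.195 to 0.035, and RNA and footprints of 1 number of -0.006 to 0.126. Low correlations over all transcripts cannot show that RNA and footprints of a number came from different lysates. The labels do not say whether a number marks 1 lysate. The main fits did not take the numbers as pairs, and the efficiency calls of members depend on that choice.

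Members in the lowest 25% of efficiency were 2 in parental cells and 1 to 2 without a replicate. They were 7 in knockdown cells, and as many in control guide cells, against 2 of 2 with a minimum mean of 50.

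The changes that turned sign were all uncalled. Without a replicate, ITGB5 RNA in knockdown cells had changes from -0.0376 to 0.0930, CD44 efficiency from -0.0699 to 0.84 and ITGA2 efficiency from -0.35 to 0.12. In LM2 cells ITGAV RNA had changes from -0.21 to 0.0058, ITGB1 RNA from -0.0258 to 0.0672, and efficiency from -0.0680 to 0.24 for ITGA2, -0.43 to 0.11 for ITGA5 and -0.11 to 0.38 for ITGB5, which was -0.0018 after quantile normalization. Footprint values under about 20 limit what can be seen for ITGA5 and ITGAV, and in the knockdown experiment for ITGB4 and ITGB5 too.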
